A study of Bos taurus with 6 samples.

Results

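The proteasome genes of the bovine testis were the 48 entries, of 47249 in the table of genes, whose symbol starts with PSM, a letter from A to G and a digit. PSMC3IP, a meiotic recombination gene that carries a proteasome-like symbol, was not included. The 48 genes were 8 subunits of the 20S alpha ring, 7 constitutive and 4 inducible or thymic subunits of the beta ring, 6 ATPases and 11 other subunits of the 19S cap, 5 activators or inhibitors and 7 assembly chaperones. All 48 were found by symbol in the RefSeq annotation of cattle and overlapped the locus of the same symbol there.

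The study compared testes of 3 immature calves aged 3 months with those of 3 mature bulls aged 3 years, all untreated Wandong cattle (Bos taurus), with 1 library per animal. Ribosomal RNA was removed from total RNA before strand-specific sequencing, and expression was given as FPKM, fragments per length of a gene and per mapped fragments in total. An FPKM is a level per length and can be compared between genes of a library. The RNA came from slices of testis that hold many cell types, so fewer cells of a type and less RNA per cell cannot be told apart.

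The proteasome is the protease that breaks down proteins tagged with ubiquitin. Its 20S core is a barrel of outer alpha rings and inner beta rings, and the catalytic sites sit on the beta subunits PSMB5, PSMB6 and PSMB7. The 19S cap recognises, unfolds and feeds substrates into the core, and other caps (PA28 and PA200) open the core without ubiquitin. In immune cells and under interferon, PSMB8, PSMB9 and PSMB10 take the places of the catalytic subunits in the immunoproteasome. Male germ cells build a further form, in which PSMA8 takes the place of the alpha4 subunit PSMA7, and PA200 (PSME4) is known for the breakdown of acetylated core histones there.

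The library of calf 3 went against its testis label. The Sertoli cell genes FSHR, WT1 and GATA4 were at 0 in it, and the 6 Sertoli markers summed to 14.8 FPKM against 1786 and 1456 in calves 1 and 2 and 117 to 148 in bulls. None of these 6 was called in limma with all libraries, and all 6 were called lower in bulls without calf 3. Its 5 Leydig cell markers summed to 0.484 FPKM, against 1083 to 2590 in the other 5 libraries. The oligodendrocyte markers (4 genes) summed to 12032 FPKM in calf 3 and to between 3.1 and 9.90 in the others, the astrocyte markers (2 genes) to 1413 against 1.58 to 5.75, and the neuron markers (3 genes) to 458 against 2.49 to 7.03. Each result is therefore given with all 6 libraries and, where it moved, without calf 3. Spermatocyte markers (5 genes) summed to 27.0, 33.0 and 16.8 FPKM in calves 1 to 3 and to between 156 and 179 in bulls, and spermatid markers (5 genes) to 3.08, 3.31 and 1.48 against 12189 to 13891. All 5 spermatocyte markers were called higher in bulls. Summed FPKM over all genes ran from 587066 in calf 3 to 1098715 in calf 2, and the number of genes above 0 from 27164 in calf 3 to 38975 in bull 2. The proteasome genes together made up 1586, 1910 and 1169 FPKM in calves 1 to 3 and 2591, 2502 and 2523 in bulls 1 to 3.

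Proteasome genes did not move as a block between the ages. A gene was called when its limma adjusted p was below 0.05 and its log2 fold change, bull minus calf on log2(FPKM + 1), was at least 1 in size. In mature bulls 13 of the 48 genes (27.1%) were called higher, while 35.7% of all 18115 genes tested were. There were 2 genes (4.17%) called lower, against 9.61% of all genes tested, and 33 were not called. Without calf 3, 13 were higher (the same 13) and 5 lower (10.4%), where 37.9% and 13.6% of all genes tested were called. The median log2 fold change was 0.51 over the proteasome genes and 0.43 over all genes tested, so the family lay close to the transcriptome as a whole. All 48 passed the filter on low values. PSMB11, 1 of the 13, passed only through its bull libraries, so its call is given as a description only.

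The level that stands for no change depended on the scaling of the libraries. The median over all genes tested was 0.43 with the deposited FPKM, -0.09 after upper quartile scaling and -0.26 after quantile normalization, and the median over the proteasome genes followed at 0.51, -0.11 and -0.27. The calls among the 48 genes were 13 higher and 2 lower as deposited (86.7% of calls higher), 9 and 4 after upper quartile scaling (69.2%), and 8 and 5 after quantile normalization (61.5%). Over all genes tested, 35.7% were called higher and 9.61% lower as deposited. These shares were 27.8% and 20.3% after upper quartile scaling, and 21.1% and 25.1% after quantile normalization. The calls over all genes thus shifted in the same direction as those of the 48. Relative to the median of all genes as deposited, 26 proteasome genes lay above it and 22 below. Called higher in all of these scalings and without calf 3 were 8 genes, namely PSMA8, PSMF1, PSME4, PSME3, PSMG1, PSMA6, PSMG2 and PSMD8, and called lower in all of them were 2, PSMA7 and PSMD10.

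Bull libraries all lay above calf libraries in 27 of the 48 genes and all below in 4, where 46.1% and 21.3% of all genes tested did so. The groups overlapped in 17 genes. Among the 33 genes not called, 23 had a higher and 10 a lower estimate in bulls, and 6 had an adjusted p below 0.05 with a fold change under the limit.

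**Figure D1:**
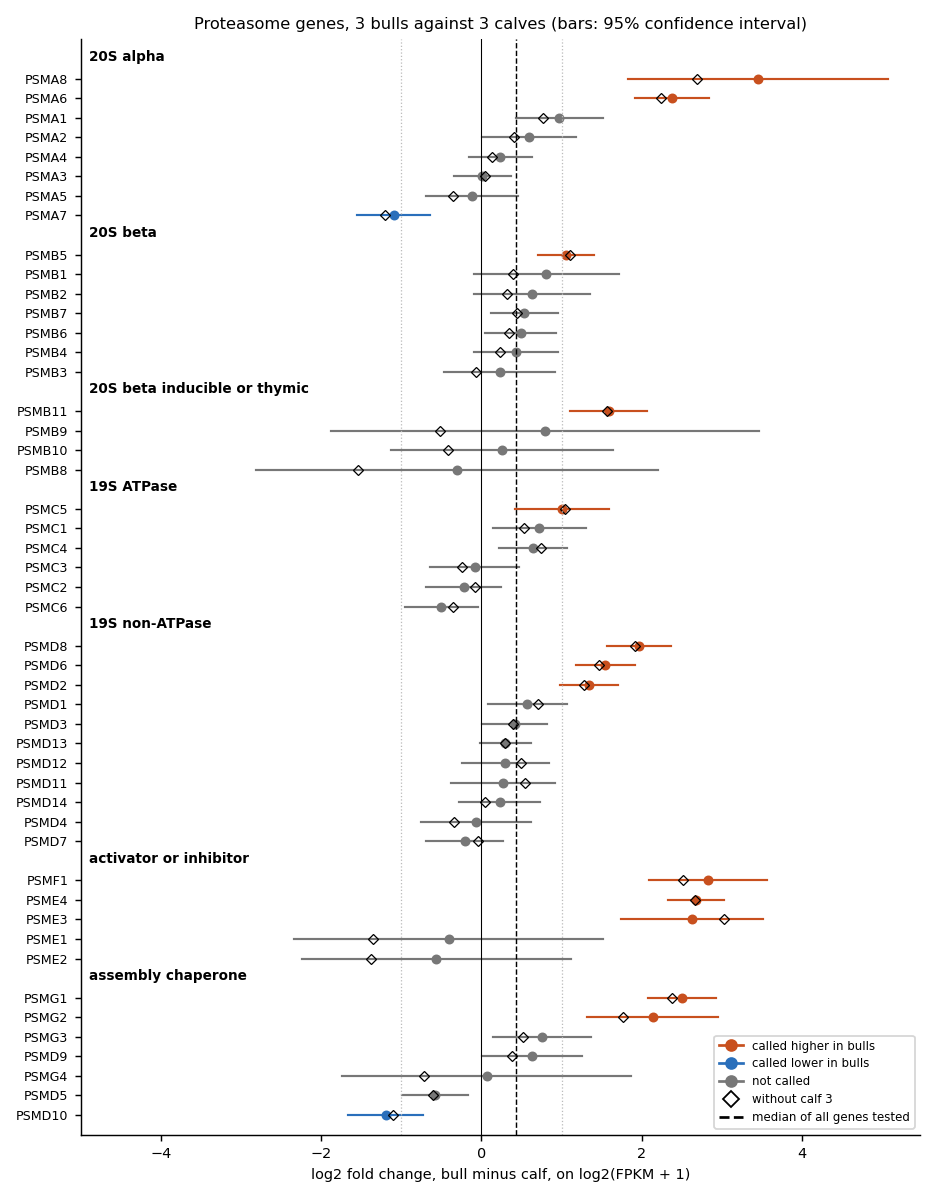
Log2 fold change (bull minus calf, x axis) of the 48 proteasome genes by class, with points for the estimate, bars for its 95% confidence interval, open diamonds for the estimate without calf 3 and a dashed line at the median of all genes tested (0.43). Most subunits lie near the dashed line, PSMA8, PSMF1, PSME4, PSME3, PSMG1, PSMA6 and PSMG2 lie above 2, and the intervals of PSMB8, PSMB9, PSME1 and PSME2 are wide, with calf 3 far from calves 1 and 2.

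In the alpha ring, the exchange partners at the alpha4 position moved in opposite directions. PSMA8 (ENSBTAG00000017698, chromosome 24, 30636287 to 30657276, on an ARS-UCD assembly as are all positions), the testis alpha4 subunit, had 3.16, 4.66 and 0 FPKM in calves 1 to 3 and 30.4, 38.3 and 24.0 FPKM in bulls 1 to 3. Every bull was above every calf, and the log2 fold change was 3.45 ± 0.66 (SE, n = 3 per group, limma adjusted p = 0.00558). Without calf 3 it was 2.69, and the mean FPKM of bulls was 7.91 times that of calves 1 and 2. This was the largest increase among the 48 genes with all 6 libraries.

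PSMA7 (ENSBTAG00000005127, chromosome 13, 55054323 to 55059934), the alpha4 subunit of somatic cells, had 63.7, 77.5 and 56.4 FPKM in calves and 28.9, 27.1 and 34.7 FPKM in bulls. All bulls lay below all calves, with a log2 fold change of -1.09 ± 0.19 (limma adjusted p = 0.00329). Without calf 2 the fold change was -0.97, under the limit for a call. PSMA7 and PSMA8 are paralogs, and how fragments that match both were counted was not stated.

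PSMA8 made up 4.72%, 5.67% and 0% of the summed PSMA7 and PSMA8 FPKM in calves 1 to 3 and 51.3%, 58.6% and 40.9% in bulls 1 to 3. The mean share rose from 3.46% ± 3.04 to 50.2% ± 8.89 (SD, n = 3 each), a difference of 46.8 percentage points. The groups did not overlap, and the two-sided exact permutation test gave p = 0.1, the smallest that 3 against 3 libraries allow (0.175 after adjustment over 7 such within-library measures). A single factor per library, as in upper quartile scaling, leaves the share unchanged. The share was not computed after quantile normalization, which can change it. The sum of PSMA7 and PSMA8, the alpha4 level of the ring, was 66.9, 82.1 and 56.4 FPKM in calves and 59.4, 65.4 and 58.6 FPKM in bulls, where the groups overlapped. After upper quartile scaling, chosen after seeing the data, the sum was 89.3, 104 and 69.6 in calves and 49.9, 53.2 and 47.6 in bulls, with all bulls below all calves, so whether the sum differed depended on the scaling.

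PSMA8, the other called increases and the spermatocyte and spermatid markers given above were all higher in bulls, while the Sertoli markers were lower in bulls without calf 3. Genes called higher share this direction by the way they were picked, so it does not link them to the markers. Of the 5 spermatogonia markers, none was called higher and 1 was called lower with all libraries. The part of these cell types in these differences was not tested.

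**Figure D2:**
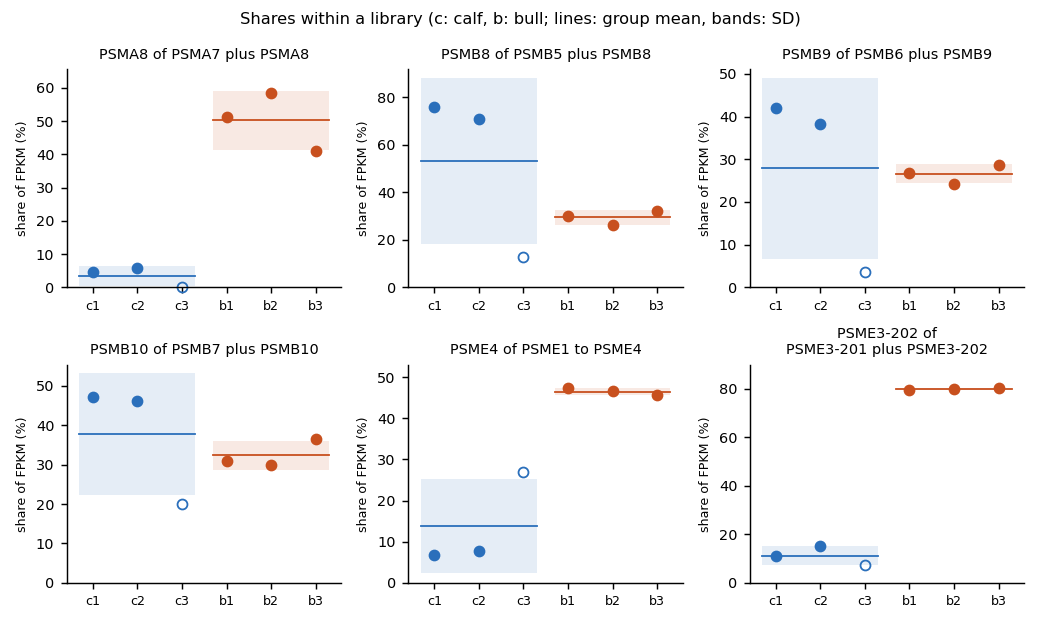
Shares of FPKM within each library (percent, y axis) for the alpha4 pair, the 3 catalytic pairs, the activators and the PSME3 transcripts, with calf libraries in blue (calf 3 open), bull libraries in orange, lines at group means and bands of 1 SD. PSMA8 takes 40.9% to 58.6% of its pair in bulls and at most 5.67% in calves, while PSMB8 takes 26.1% to 32.1% of its pair in bulls, 70.9% and 75.7% in calves 1 and 2 and 12.9% in calf 3.

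Among the other alpha subunits PSMA6 (alpha1) stood apart. It had 48.7, 53.6 and 37.8 FPKM in calves and 248, 243 and 244 FPKM in bulls, a log2 fold change of 2.38 ± 0.19 (limma adjusted p = 0.000134). The bull libraries differed from each other by far less than they differed from the calves. PSMA6 was 1.09 to 1.38 times the median of the 14 constitutive core subunits in calves and 4.79 to 5.25 times in bulls, although each proteasome holds the same number of every core subunit. The remaining 5 alpha genes were not called and ranged from -0.12 for PSMA5 to 0.97 for PSMA1, whose adjusted p was 0.0109 in limma.

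The spread of levels over the 14 constitutive core subunits (PSMA1 to PSMA7 and PSMB1 to PSMB7), as a coefficient of variation within a library, was 39.7%, 38.7% and 41.3% in calves 1 to 3 and 83.9%, 83.5% and 84.3% in bulls. The difference in means was 44.0 percentage points (exact permutation test, p = 0.1, 0.175 adjusted). With PSMA6 left out, the remaining 13 subunits gave 41.6%, 40.5% and 43.2% in calves and 48.0%, 46.5% and 44.6% in bulls, so most of the wider spread came from PSMA6. Both measures were chosen after the values were seen, so they are descriptions and the p-value gives no support.

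**Figure D3:**
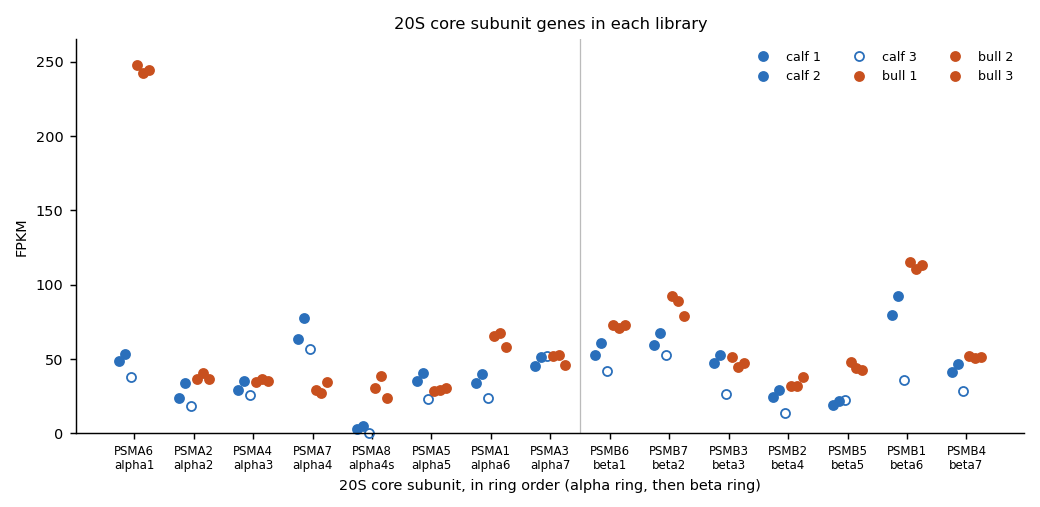
FPKM (y axis) of the 7 constitutive alpha subunits with PSMA8 beside PSMA7, and of the 7 constitutive beta subunits (x axis, ring order), with calves in blue (calf 3 open) and bulls in orange. PSMA6 reaches 243 to 248 FPKM in bulls while the other core subunits reach at most 115 FPKM, and PSMA7 is the alpha subunit that lies lower in all bulls than in all calves.

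Of the 7 constitutive beta subunits 1 was called. PSMB5, the chymotrypsin-like catalytic subunit, had 19.1, 21.5 and 22.7 FPKM in calves and 48.1, 43.6 and 42.7 FPKM in bulls, a log2 fold change of 1.05 ± 0.14 (limma adjusted p = 0.00126). It was not called without calf 1 (0.99) or after upper quartile scaling (0.44) or quantile normalization (0.30). Its neighbour PSMB11 overlaps 92.7% of the PSMB5 locus, and reads there could be assigned to either gene.

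PSMB6, the caspase-like subunit, had 52.6, 61.1 and 41.8 FPKM in calves and 72.7, 71.1 and 73.0 FPKM in bulls, and PSMB7, the trypsin-like subunit, had 59.1, 67.6 and 52.4 against 92.6, 89.1 and 78.8. Every bull was above every calf in both genes, but the log2 fold changes were 0.49 and 0.54, near the median of all genes, and both turned negative after upper quartile scaling and quantile normalization. The 7 constitutive beta genes ranged from 0.23 (PSMB3) to 1.05 (PSMB5), with bulls above calves in 6 of them.

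The levels of the immunoproteasome subunits differed strongly between calf 3 and the other calves. PSMB8, which replaces PSMB5, had 59.4, 52.3 and 3.36 FPKM in calves 1 to 3 and 20.6, 15.4 and 20.2 FPKM in bulls. Bulls lay below calves 1 and 2 and above calf 3. With all libraries the log2 fold change was -0.30 (limma adjusted p = 0.82), and without calf 3 it was -1.53 ± 0.15 (limma adjusted p = 0.000217), a call.

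PSMB9, which replaces PSMB6, had 38.1, 37.7 and 1.51 FPKM in calves and 26.7, 22.8 and 29.4 FPKM in bulls. Its log2 fold change was 0.80 (limma adjusted p = 0.563) and -0.52 without calf 3 (limma adjusted p = 0.0107), under the limit. PSMB10, which replaces PSMB7, had 52.8, 58.0 and 13.1 FPKM in calves and 41.3, 37.8 and 45.4 FPKM in bulls, with 0.26 (limma adjusted p = 0.723) and -0.41 without calf 3 (limma adjusted p = 0.0167). All 3 genes were thus at lower levels in every bull than in calves 1 and 2, and at their lowest in calf 3.

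Within the catalytic pairs, PSMB8 was 75.7%, 70.9% and 12.9% of the PSMB5 and PSMB8 sum in calves 1 to 3 and 30.0%, 26.1% and 32.1% in bulls. PSMB9 was 42.0%, 38.2% and 3.49% of its pair in calves and 26.9%, 24.3% and 28.7% in bulls. PSMB10 was 47.2%, 46.2% and 19.9% against 30.8%, 29.8% and 36.5%. With all libraries the differences of -23.8, -1.29 and -5.39 percentage points lay within the spread of the calves (exact permutation test, p = 0.4, 1 and 0.7). Without calf 3 they were -43.9, -13.5 and -14.3 percentage points and the groups did not overlap, but 2 against 3 libraries cannot give a p below 0.2.

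Genes of the interferon response and antigen presentation (6 genes, among them IRF1 and TAP1) moved in the same way. Their summed FPKM was 175, 138 and 32.0 in calves 1 to 3 and between 49.4 and 54.0 in bulls, with none of the 4 that were tested called in limma with all libraries and 3 lower without calf 3. The 5 lymphoid markers summed to 22.0, 16.1 and 0.375 FPKM in calves and to between 7.49 and 10.4 in bulls, with CD79A at 0 in calf 3. Of the 3 tested, MS4A1 was called higher with and without calf 3, and the T cell genes CD3E and CD3D were called lower without it (-1.91 and -1.96). The 4 macrophage markers summed to 31.1, 21.5 and 37.5 FPKM against 22.2 to 30.0, and of the 3 tested CSF1R was called lower (-1.76) and CD14 higher (1.95), both also without calf 3. The part of these cells in the levels of the immunoproteasome subunits was not tested.

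PSMB11, the thymic catalytic subunit, was low throughout, with 0.102, 0.0246 and 0.00925 FPKM in calves and 2.44, 1.37 and 2.80 FPKM in bulls. Its bulls lay above its calves, and 52.8% of its locus overlaps PSMB5, which had 42.7 to 48.1 FPKM in bulls.

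The activators and the inhibitor formed the class with the largest changes, with a median log2 fold change of 2.63. PSME4 (ENSBTAG00000020262, chromosome 11, 36572842 to 36673067), which encodes PA200, had 9.70, 11.8 and 10.4 FPKM in calves and 68.5, 75.8 and 75.7 FPKM in bulls. Its increase was 2.68 ± 0.14 (limma adjusted p = 3.24e-05) and 2.66 without calf 3, and calf 3 lay between the other calves. PSME4 had the smallest adjusted p of the 48 genes.

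PSMF1 (ENSBTAG00000018417, chromosome 13, 59967956 to 60007443), which encodes the inhibitor PI31, had 21.9, 28.9 and 12.7 FPKM in calves and 151, 140.4 and 154 FPKM in bulls. The log2 fold change was 2.83 ± 0.30 (limma adjusted p = 0.000462) and 2.52 without calf 3, and the lowest bull was well above the highest calf.

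PSME3 (ENSBTAG00000019918, chromosome 19, 42858108 to 42866438) encodes PA28gamma, the nuclear activator. It had 2.89, 3.42 and 8.40 FPKM in calves and 33.0, 28.5 and 37.3 FPKM in bulls, a log2 fold change of 2.63 ± 0.36 (limma adjusted p = 0.00133). Here calf 3 was the highest calf, and without it the increase was 3.02.

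PSME1 and PSME2, which encode the alpha and beta chains of the interferon-induced PA28 cap, went the other way. PSME1 had 82.7, 81.2 and 10.8 FPKM in calves and 26.6, 37.6 and 31.5 FPKM in bulls, and PSME2 had 48.9, 55.5 and 8.79 against 16.7, 20.8 and 21.3. With all libraries neither was called (-0.41 and -0.56, limma adjusted p = 0.682 and 0.515), and without calf 3 both were called lower (-1.35 and -1.38, limma adjusted p = 0.000368 and 0.000225). They followed the immunoproteasome subunits and the interferon genes across the 6 libraries. The loci of PSME1 and PSME2 overlap each other.

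As a share of the 4 activator genes, PSME4 was 6.73%, 7.77% and 27.0% in calves 1 to 3 and 47.3%, 46.6% and 45.6% in bulls. The mean share was 13.8% ± 11.4 in calves and 46.5% ± 0.849 in bulls (SD, n = 3 each), a difference of 32.7 percentage points that became 39.3 without calf 3. The groups did not overlap (exact permutation test, p = 0.1, 0.175 adjusted).

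**Figure D4:**
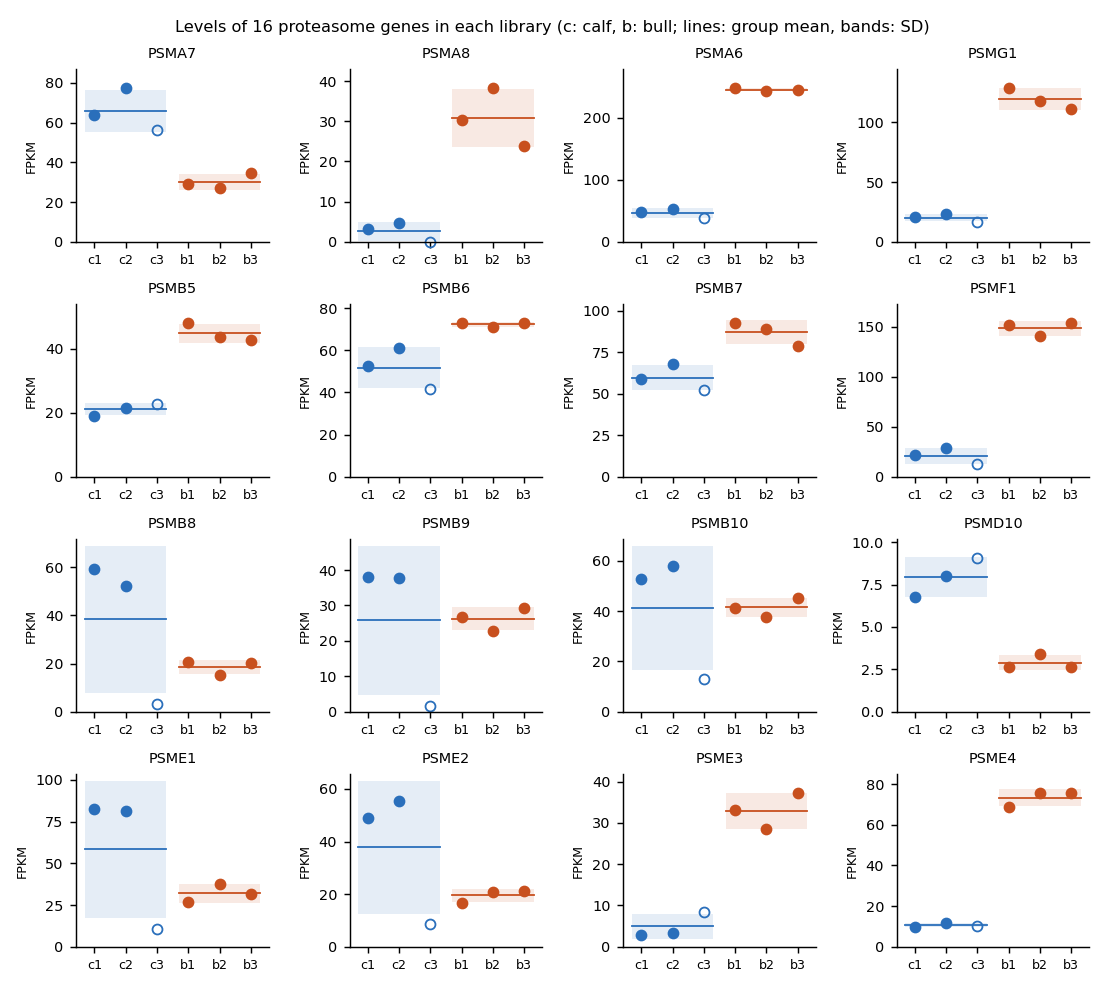
FPKM (y axis, from 0) of 16 proteasome genes in each library, with calves in blue (calf 3 open), bulls in orange, lines at group means and bands of 1 SD. PSMA8, PSMA6, PSMG1, PSMF1, PSME3 and PSME4 are high in all 3 bulls and low in all 3 calves, while in PSMB8, PSME1 and PSME2 the bulls lie below calves 1 and 2 and above calf 3.

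The 19S cap changed little as a class with the deposited FPKM. Of its 6 ATPases, PSMC5 was called higher, with 22.3, 39.4 and 32.4 FPKM in calves and 67.5, 55.1 and 64.8 FPKM in bulls (1.0 ± 0.24, limma adjusted p = 0.0133). It lay at the limit and lost its call without calf 1, bull 1 or bull 3 (0.78, 0.94 and 0.97) and under both scalings. The other ATPases ranged from -0.50 for PSMC6, which was lower in all bulls than in all calves, to 0.72 for PSMC1. PSMC6 was called lower after upper quartile scaling (-1.12) and quantile normalization (-1.24), and PSMC2 after quantile normalization (-1.04).

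Of the 11 other 19S subunits, 3 were called higher. PSMD8 (RPN12) rose by 1.97 on the log2 scale, as are the changes that follow (limma adjusted p = 0.000166), from 36.4, 39.2 and 33.5 FPKM in calves to 166, 134 and 138 FPKM in bulls. PSMD8 lies within the locus of GGN, a gene of haploid germ cells, whose FPKM was 0.785, 0.916 and 0.731 in calves and 26.8, 18.7 and 43.0 in bulls. The bull libraries ranked differently in the 2 genes, and how fragments in the shared locus were assigned was not stated. PSMD6 (RPN7) and PSMD2 (RPN1) rose by 1.55 and 1.34 (limma adjusted p = 0.000292 and 0.000532), to 79.2 to 84.4 and to 110.5 to 121 FPKM in bulls. Neither was called after upper quartile scaling (0.93 and 0.71) or quantile normalization (0.77 and 0.54). The other 8 ranged from -0.21 (PSMD7) to 0.57 (PSMD1).

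Among the assembly chaperones PSMG1 and PSMG2, the partners that form the PAC1-PAC2 dimer on which the alpha ring is built, rose together. PSMG1 had 20.5, 23.6 and 17.0 FPKM in calves and 129, 118 and 111 FPKM in bulls (2.50 ± 0.17, limma adjusted p = 8.42e-05). PSMG2 had 14.7, 17.0 and 6.76 FPKM in calves and 53.3, 54.8 and 60.5 FPKM in bulls (2.14 ± 0.33, limma adjusted p = 0.0023, and 1.77 without calf 3). PSMG3 and PSMG4, which form the other alpha ring chaperone dimer, were not called (0.76 and 0.06). PSMG4 had the largest SD of FPKM within calves among the proteasome genes, at 60.2, 149 and 17.7 FPKM. It lay between 45.9 and 64.8 FPKM in bulls.

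The chaperones of the 19S base went differently. PSMD10 (gankyrin), on the X chromosome (56715369 to 56723016), had 6.75, 8.01 and 9.08 FPKM in calves and 2.62, 3.42 and 2.66 FPKM in bulls, a log2 fold change of -1.20 ± 0.19 (limma adjusted p = 0.00245). All bulls lay below all calves. It lies within the ATG4A locus, and ATG4A was also called lower. PSMD5 had a log2 fold change of -0.58 with bulls below calves and was not called as deposited. It was called lower after upper quartile scaling (-1.16) and quantile normalization (-1.14). PSMD9 was at 0.63 and not called.

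The table of transcripts held 94 entries of these 48 genes, of which 59 were tested among 23212, and 22 genes had 1 entry. In bulls 15 entries of 14 genes were called higher and 2 lower, while 34.8% and 9.37% of all transcripts tested were called. Of the 15, 3 (PSMB11-201, PSME3-202 and PSMG2-AS2) passed the filter only through bull libraries. Without calf 3 the counts were 17 and 6, with no share over all transcripts given beside them. Over all genes tested, the share called lower was 9.61% with all libraries and 13.6% without calf 3. For most genes a single entry carried the level of the gene. PSME3 was an exception, since its levels came from different entries at the 2 ages.

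The entry PSME3-202 had 0.297, 0.464 and 0.572 FPKM in calves and 25.6, 22.0 and 28.7 FPKM in bulls, given as levels since it passed the filter only in bulls. PSME3-201 had 2.38, 2.63 and 7.25 FPKM in calves and 6.68, 5.51 and 7.12 FPKM in bulls (0.67, limma adjusted p = 0.19), although it was called higher without calf 3. PSME3-202 made up 11.1%, 15.0% and 7.32% of their sum in calves 1 to 3 and 79.3%, 80.0% and 80.1% in bulls, a difference of 68.7 percentage points. This share was chosen after its values were seen and rests on an entry that passed the filter only in bulls. It was among the 7 measures adjusted for, but is given as a description only.

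In PSMG2, the entry PSMG2-201 rose by 1.88 (limma adjusted p = 0.00469). The antisense entry PSMG2-AS2, which also passed the filter only in bulls, had 0.303, 0.194 and 0.254 FPKM in calves and 6.85, 10.4 and 13.2 FPKM in bulls, and it was part of the gene's value. PSMC1-201 had 0.991, 1.67 and 0.591 FPKM in calves and 14.3, 3.41 and 13.6 FPKM in bulls (2.29, limma adjusted p = 0.0134), while the main entry PSMC1-202 was not called (0.55). Bull 2 stood below the other bulls in PSMC1-201.

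Of 34 further genes of the ubiquitin and proteasome pathway that were listed, 33 were analysed here. In bulls 13 were called higher, 4 lower and 16 were not called, with a median of 0.54 (13 higher and 5 lower without calf 3, 8 and 8 after quantile normalization). Of the 13, 2 passed the filter only through bull libraries. These are counts of a short list beside the 35.7% and 9.61% of all genes tested (21.1% and 25.1% after quantile normalization). The receptors and accessory subunits (14 genes) had 6 higher and 2 lower. ADRM1, the ubiquitin receptor RPN13 of the 19S cap, rose from 11, 13.4 and 10.5 FPKM in calves to 123, 66.1 and 98.0 FPKM in bulls (2.90, limma adjusted p = 0.000222), and SEM1, the smallest 19S subunit, rose by 1.60 (not called after quantile normalization, 0.80).

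The ubiquilins, shuttle factors that carry ubiquitinated proteins to the proteasome, split by paralog. UBQLNL was at most 0.0127 FPKM in calves and 26.7 to 27.8 FPKM in bulls. UBQLN2 and UBQLN4 were lower in bulls (-1.96 and -1.67), and UBQLN1 was not called (0.30). The shuttle factor DDI1 rose by 5.02 from 0.130, 0.788 and 2.54 FPKM in calves to 59.4, 54.4 and 71.4 FPKM in bulls. The shuttle factor RAD23B was not called with all libraries as deposited (-0.90), and was called lower without calf 3 (-1.08) and after quantile normalization (-1.62).

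In assembly and transport (5 genes), PAAF1, which binds the 19S ATPases, and AKIRIN2, which brings proteasomes into the nucleus, rose by 1.73 and 1.10 (AKIRIN2 not called after quantile normalization, 0.39), ZFAND5 fell by 1.44, and POMP, the maturation factor of the 20S core, was not called (0.79). NGLY1, the deglycosylase that activates the proteasome transcription factor NFE2L1, rose by 2.33, while NFE2L1 itself was at -0.46 and not called (lower after quantile normalization, -1.20). In the segregase group (4 genes), NPLOC4 rose by 1.36 (not called after quantile normalization, 0.63), and VCP was at 0.45. The polyubiquitin gene UBB rose by 1.99. The ubiquitin-activating enzyme UBA1, on the X chromosome, was called lower with all libraries (-1.09) but not without calf 3 (-0.75), and UBA6 was not called. RPS27A, ubiquitin fused to a ribosomal protein, had 1610, 1519 and 273 FPKM in calves 1 to 3 and 255 to 297 in bulls. It was at -1.63 (not called) and was called lower without calf 3 (-2.47) and after quantile normalization (-1.47), and how fragments shared with copies of the gene were counted was not stated. Of the proteasome-bound ligases (2 genes), UBE3C rose by 1.29 (not called after quantile normalization, 0.60) and UBE3A was not called (-0.33, but lower after quantile normalization, -1.03).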

How the data were processed

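Testes of 3 calves and 3 bulls were sequenced as 1 library per animal, so p-values measure the spread between animals. The values are FPKM that the authors deposited for genes and for transcripts, with no counts. The study gives the reads of each library, but the fragments behind a value are unknown, and no counting interval was given. According to the methods, reads were cleaned, rRNA reads were removed with Bowtie2, reads were mapped with TopHat2 and transcripts assembled with StringTie. Cuffdiff is named there for circRNAs. The tool behind the FPKM values of genes is not given in the sources used here, and the value of a gene can include antisense entries. UMD3.1.1 is the assembly named there, but the positions in the tables lay at the loci of the same symbols in an ARS-UCD annotation and are given as ARS-UCD positions.

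FPKM were transformed to log2(FPKM + 1), on which changes of low genes are understated. Features that reached 1 FPKM in any 3 or more of the 6 libraries were fitted with limma 3.58.1 (R 4.3.3, empirical Bayes with trend), with Benjamini-Hochberg adjustment over all features tested. The script was checked on simulated data. Shares were tested with two-sided exact permutation tests (SciPy 1.17.1, adjusted over 7). Figures used matplotlib 3.10.9. Of 3 rows with the symbol CYP17A1, the row listed at the top was used.

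Members, pathway genes and marker lists were chosen with earlier results of these data known. Values in every library are given for PSMA7, PSMA8, PSMB5 to PSMB10, PSME1 to PSME4, PSMF1, the 5 called members with the largest increase and the 5 with the largest decrease (only 2 were called), and members whose call changes without calf 3. PSMA6, PSMB11, PSMC5, PSMD8, PSMG2 and PSMG4 were added after their values were seen. Besides the lists in the report, markers of spermatogonia (5 genes) summed to 104 to 233 FPKM, 1 called lower. The 233 FPKM was calf 3, where UCHL1 alone had 201 FPKM against 20.8 to 30.0 in the other libraries, and DMRT1 had 0.0938. Markers of peritubular myoid cells (4 genes) summed to 14.2 to 60.9 FPKM, 2 called higher, and of endothelial cells (4 genes) to 6.71 to 26.0 FPKM, none called. No sequences were used. A few genes of the pathway and marker lists are not reported here by name. Alternatives were another pseudocount (0.1), no filter, quantile normalization, upper quartile scaling, each library left out and a replicate block.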

Additional observations from a re-analysis of the deposited data

How the results depend on the processing

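Quantile normalization gave 8 proteasome genes higher and 5 lower, a median of -0.27, 7 transcripts lower, and negative values for PSMB6 (-0.28), PSMB7 (-0.25) and PSMB10 (-0.48). Upper quartile scaling gave 4 genes lower, a median of -0.11, and negative values for PSMB6 (-0.14), PSMB7 (-0.090) and PSMB10 (-0.36). Quantile normalization with calf 3 left out, chosen after seeing the data, gave 8 higher and 13 lower (38.1% of calls higher). These were 16.7% and 27.1% of the proteasome genes, where 22.4% and 29.1% of all genes tested were called. The median was -0.39 against -0.24 over all genes tested. PSMB6 was at -0.46, PSMB7 at -0.36, PSMB9 at -1.28 and PSMB10 at -1.21. Leaving out each library in turn gave 12 to 14 genes higher and 1 to 5 lower, and 13 to 17 transcripts higher and 1 to 6 lower. Apart from genes without calf 3 (37.9% and 13.6% of all tested), these counts have no share over all features beside them. The same holds for the 7 transcripts lower after quantile normalization. Such counts describe the proteasome genes alone. The extremes of the lower counts were without calf 2 (1 gene and 1 transcript) and without calf 3 (5 genes and 6 transcripts). Over these fits PSMB8 ran from -1.53 to 0.36, PSMB9 from -0.52 to 1.46, PSMB10 from -0.41 to 0.62 and PSME1 from -1.35 to 0.065. The PSMB9 share difference ran from -13.5 to 5.77 percentage points, the PSMB8 one from -43.9 to -12.5, the PSMB10 one from -14.3 to -0.68, the PSMA8 one from 42.6 to 51.4 and the PSME4 one from 29.1 to 39.3. PSMA8, PSMA6, PSMF1, PSME3, PSME4, PSMG1, PSMG2, PSMD8 and PSMD10 kept their call in all 12 alternatives and PSMA7 in 11. The cause of these shifts was not tested. The replicate numbers of the labels pair no animals: libraries with the same number correlated at 0.0277, 0.0246 and 0.0341 after removal of the group means, which was the highest value for each library. With a replicate block the fit gave 13 genes higher and 2 lower and 15 transcripts higher and 2 lower, as without it. The files hold FPKM without counts, so depth sets no stated limit for single values.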
